A study of Heliocidaris erythrogramma with 5 samples.

Results

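The cytochrome P450 features of *Heliocidaris erythrogramma* (*He*), a sea urchin whose larvae develop without feeding, were followed through 5 larval libraries. A feature is a gene model in the deposited count matrices, and every feature whose gene name begins with Cyp and a digit was taken, copies of a name included. Of the 38707 features of the matrices, 149 such members had a UMI (below) in some cell and 36 had none, under 83 names in all. The study dissociated whole larvae at 36, 42, 48, 56 and 60 hours post fertilization (hpf), fixed the cells in methanol and made 1 droplet library per age, with no treatment and no genetic change at any age. The cells are therefore a mixture of all larval tissues and of the adult rudiment that forms on the left side. With 1 library per age there is no replicate, so no test between ages was possible, and all intervals below are 95% intervals for counting error only. Where nothing else is said, a change compares 60 with 36 hpf.

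Cytochrome P450s are heme enzymes that insert an oxygen atom into small, mostly fat-soluble molecules. Most sit in the endoplasmic reticulum and take electrons from P450 reductase and cytochrome b5, while some work in mitochondria and take them from ferredoxin. Numbered families share sequence. Families 1, 2 and 3 are best known in vertebrates for clearing foreign chemicals, family 4 for oxidizing fatty acids, families 27, 46 and 51 for sterols, family 17 for steroid hormones and family 26 for breaking down retinoic acid. The names used here were carried over from the purple sea urchin annotation (prefix Sp), and an ending such as L marks likeness to the family. The roles given are thus those of the vertebrate enzymes, and none was measured in these larvae.

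Across the libraries 26740 cells were kept, 4080 to 8972 per age, with 4193645 to 12136079 unique molecular identifiers (UMIs, each standing for a captured RNA molecule) and a median of 814 to 1634.5 UMIs per cell. Library pairs shared 4 to 12 cell barcodes. The 56 hpf library was the shallowest per cell, and the 60 hpf library held the most cells. UMIs of a feature were summed over the cells of a library and divided by a size factor of that library, which gives the normalized count used below. In such sums, more cells holding a gene and more RNA per holding cell cannot be told apart. UMIs are counted from the 3′ end of transcripts, and where copies are near-identical the counting may have split or lost their reads. Gene model numbers therefore accompany names that occur more than once.

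P450 RNA made up a small part of the larval transcriptome that was larger at the later ages. The members held 66251 UMIs in all, or 0.141%, 0.151%, 0.188%, 0.184% and 0.194% of the libraries from 36 to 60 hpf. The 149 members with a UMI were 80.5% of the total, against 64.9% of all features. For the 36 without, a count of 0 over all libraries allows a level of up to 0.000776 per 10000 UMIs. Another 92 members had 1 to 49 UMIs, with a median of 10, and together held 2.06% of the P450 UMIs. The remaining 57 members, under 46 names, had 50 UMIs or more. The lowest of them had 51 UMIs and the highest of those left out had 49. The same 57 members also had a mean normalized count of at least 10, the filter for comparing ages.

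The UMIs were very unevenly divided among families. *Cyp26L* (HER_9225.t1), the only member of the retinoic acid family, held 20876 UMIs, which is 31.5% of the total. Family 2 was the largest by features, with 106 features and 26 that had 50 UMIs or more, but held 20.7% of the UMIs. Family 1 held 19.6% with 14 features, nearly all of it in *Cyp1r4* (HER_4289.t1), with 11428 UMIs. Family 27 held 12.0% and family 17 held 5.39%. Family 46 followed with 5.03%, family 3 with 4.22% and family 4 with 1.24%. The lone *Cyp51* feature held 0.374%. The 3 leading features, *Cyp26L*, *Cyp1r4* and *Cyp27L*, together made up 57.05% of all P450 UMIs.

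The summed normalized count of the members was 10226, 12254, 14005, 10847 and 14497 from the first age to the last. The 60 hpf sum was thus 1.42-fold the 36 hpf sum (1.39 to 1.45), but the 56 hpf sum was only 1.06-fold that at 36 hpf. The low value at 56 hpf depended on the scaling. With each library scaled to its total UMI count (CPM), a choice made after seeing the data, the sums were 10239, 10930, 13658, 13317 and 14039, and the 56 hpf sum was 1.30-fold that at 36 hpf. With CPM the median log2 change of all features from 36 to 56 hpf was 0.26, against -0.03 with the size factors, and that of the members was 0.23. From 36 to 60 hpf the summed count of family 26 was 1.79-fold higher, that of family 17 was 1.86-fold higher, and those of families 1, 2 and 3 were 1.61-, 1.57- and 1.58-fold higher. Family 46 stood at 0.881-fold (0.799 to 0.972) and family 27 at 0.481-fold (0.448 to 0.516). The intervals of family 4 (0.872 to 1.30) and of *Cyp51* (0.759 to 1.64) included no change.

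Feature by feature, most members stayed within a 2-fold range between the first and the last age. Of the 57 members, 9 were at least 2-fold higher at 60 than at 36 hpf, which is 15.8% of them against 10.2% of the 14061 features that passed the same filter. At least 2-fold lower were 4 members, or 7.02% against 12.0%. With the further condition that the counting interval excludes no change, the higher members remained 9 (15.8%, against 9.96%) and the lower were 3 (5.26%, against 11.9%). The other 44 lay within 2-fold. The median log2 change of the members was 0.25, against -0.01 over all features, and with 56 hpf as the last age it was -0.06 against -0.03. The members thus lay above the median of all features with the 60 hpf library and close to it with the one before, under CPM too. By the age of the highest normalized count, 22 members peaked at 60 hpf (38.6%, against 27.2% of all features) and 6 at 36 hpf (10.5% against 22.5%). Of the ages between, 42 hpf had 10 (17.5% against 19.4%), 48 hpf had 11 (19.3% against 14.2%) and 56 hpf had 8 (14.0% against 16.7%). With CPM, 19 members peaked at 56 hpf (33.3%, against 44.2% of all features) and 17 at 60 hpf. With each cell weighted equally, the counts at 60 and 36 hpf were 15 and 11 of 59 members. The share of all features at 60 hpf was not computed with CPM or with equal weights. Whether members peaked there more often than features at large under these choices is therefore not known.

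**Figure D1:**
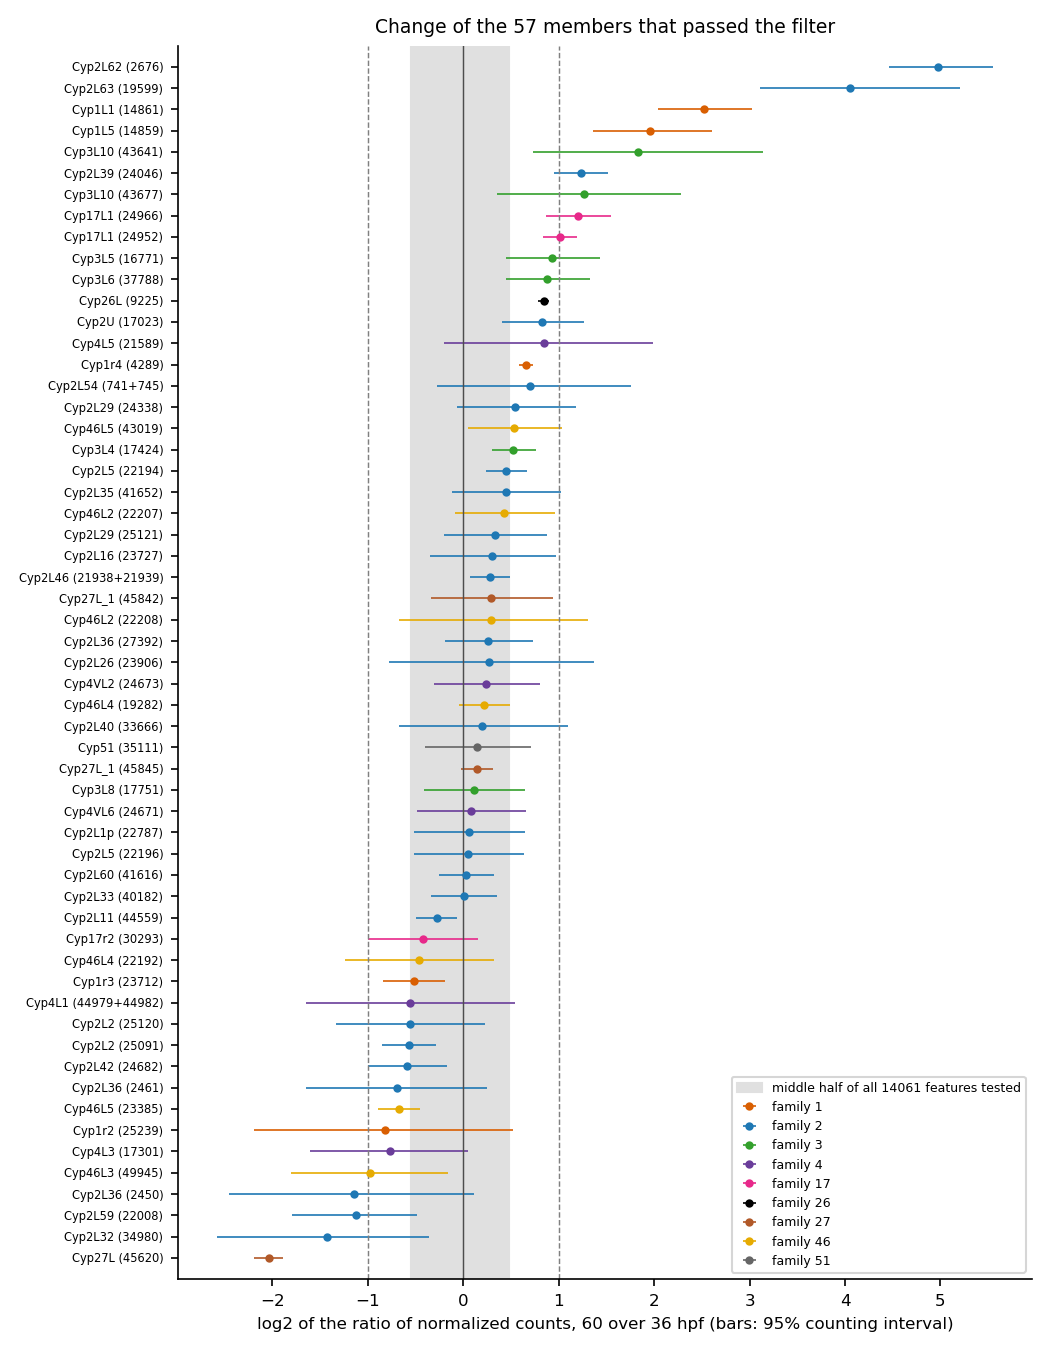
Change of each of the 57 members from 36 to 60 hpf, on a log2 axis, with its 95% counting interval, coloured by family and named by gene and gene model number. The grey band runs from the lower to the upper quartile of all 14061 features tested, -0.54 to 0.48, and the dashed lines are 2-fold. *Cyp2L62* and *Cyp2L63* stand far to the right, and *Cyp27L* is the lowest with a narrow interval.

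*Cyp26L* belongs to the family that hydroxylates retinoic acid, a vitamin A derivative that patterns the body axis of chordates. It had 2943, 3445, 4281, 2448 and 7759 UMIs from 36 to 60 hpf. The normalized counts were 2668, 3244, 5576, 3447 and 4786. It was therefore highest at 48 hpf, lowest at 36 hpf, and 1.79-fold higher at 60 than at 36 hpf (1.72 to 1.87). A UMI of *Cyp26L* was found in 9146 cells, with at most 22 UMIs in a cell. No other member was found in so many cells. The retinoic acid receptor gene *Rar*, which belongs to the list of regulators described below, had normalized counts 1.14-fold higher at 60 than at 36 hpf (1.07 to 1.21).

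To see where in the larva the members lay, cells were called positive for a cell class when they held UMIs of at least 2 different markers of that class. UMIs of a member in those cells were compared with the number expected from the rate per UMI in all other cells of the same library. Of 19 classes, 17 had at least 50 positive cells. A positive cell is not a proven cell type. Classes overlap, positive cells had a higher median depth than the rest in each class, and the interval covers only the count in positive cells.

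*Cyp26L* was above the rest of the larva in several ectodermal classes and below it in most other classes. Its ratio was 1.60 in posterior ectoderm marker-positive cells (1.54 to 1.65), 1.41 at the animal pole (1.37 to 1.44), 1.34 in the verified rudiment ectoderm and 1.27 in larval ectoderm. The exceptions among ectodermal classes were the ciliary band at 0.823, left ectoderm at 0.729 and above all putative rudiment ectoderm at 0.223 (0.207 to 0.240). It was 0.263 in skeletal cells, 0.388 in pigment cells (0.357 to 0.421), 0.468 in gut and left coelomic pouch cells, 0.488 in dividing cells and 0.529 in neural cells. In posterior ectoderm-positive cells the rate was 6.16 UMIs per 10000 at 36 hpf and 7.21 at 42 hpf. It was 13.1 at 48 hpf, 10.7 at 56 hpf and 8.07 at 60 hpf, so the high value at 48 hpf was seen within these cells too. In pigment-positive cells the rate was 0.545, 0.639, 2.43, 1.31 and 3.79 UMIs per 10000 from 36 to 60 hpf. In putative rudiment ectoderm-positive cells it was 0.626, 0.839, 1.42, 0.965 and 3.31. Both classes had their highest rate at 60 hpf, and both lay below the other cells at every age. The same was true of neural-positive cells, with 4.17 at 60 hpf, and of dividing cells, with 4.50. The late maximum was thus shared by unlike classes, and its source was not tested.

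The sterol families held the member with the largest decrease. *Cyp27L* (HER_45620.t1) is named for mitochondrial enzymes that oxidize the side chain of cholesterol and related sterols. It had 1353, 2908, 524, 221 and 486 UMIs from 36 to 60 hpf. In normalized counts these were 1226, 2738, 682.6, 311.2 and 299.8. The count was thus highest at 42 hpf, and at 60 hpf it was 4.09-fold lower than at 36 hpf (3.69 to 4.55). No other member with 50 UMIs or more was lower by as large a factor. Without this feature and the 2 that held more UMIs, the summed count of the remaining members was 1.45-fold higher at 60 than at 36 hpf. With *Cyp27L* kept and only those 2 left out, it was 1.19-fold higher (1.16 to 1.23).

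*Cyp27L* was concentrated in gut and left coelomic pouch marker-positive cells and in putative rudiment ectoderm marker-positive cells. The ratio was 5.61 in the former (5.30 to 5.94) and 4.67 in the latter (4.50 to 4.84), higher in 5 of 5 libraries for both. Gut regulator-positive cells had a ratio of 4.11, higher in 2 of 5 libraries, and dividing cells one of 2.41, higher in 4 of 5. The first pair of classes shared 143 cells, and in these *Cyp27L* had 14.6 UMIs per 10000. Cells positive for the gut and pouch markers alone (274 cells) had 5.42, those positive for the putative rudiment markers alone (2109 cells) had 3.98, and those positive for neither had 0.670. These rates were pooled over the 5 libraries, not standardized by library, so class and age are mixed in them. In the pooled rates each class held more than the rest of the larva on its own. Of the 270 cells with 5 or more *Cyp27L* UMIs, 69.3% were putative rudiment-positive and 25.6% gut and pouch-positive, and their median of 2998.5 UMIs per cell was high.

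The lower count at late ages was found within these classes. In gut and pouch-positive cells the rate was 7.12, 14.7, 5.26, 1.73 and 0.998 UMIs per 10000 from 36 to 60 hpf. In putative rudiment-positive cells it was 5.43, 7.85, 2.48, 0.651 and 0.728. Both series peaked at 42 hpf. From 36 to 60 hpf the rate in gut and pouch-positive cells changed 0.140-fold (0.0886 to 0.214), and in all other cells 0.250-fold (0.224 to 0.278). Putative rudiment-positive cells were also a smaller share of the libraries at late ages, 11.6% at 36 hpf and 17.2% at 42 hpf, then 7.13%, 5.58% and 4.25%. The part of this share in the lower summed count was not tested. In cells holding *Cyp27L* the features most enriched were *Giant* (8.5-fold) and *Evi1* (7.71-fold). *Giant* is itself a marker of the putative rudiment class. These were looked up after the values of *Cyp27L* had been seen.

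**Figure D2:**
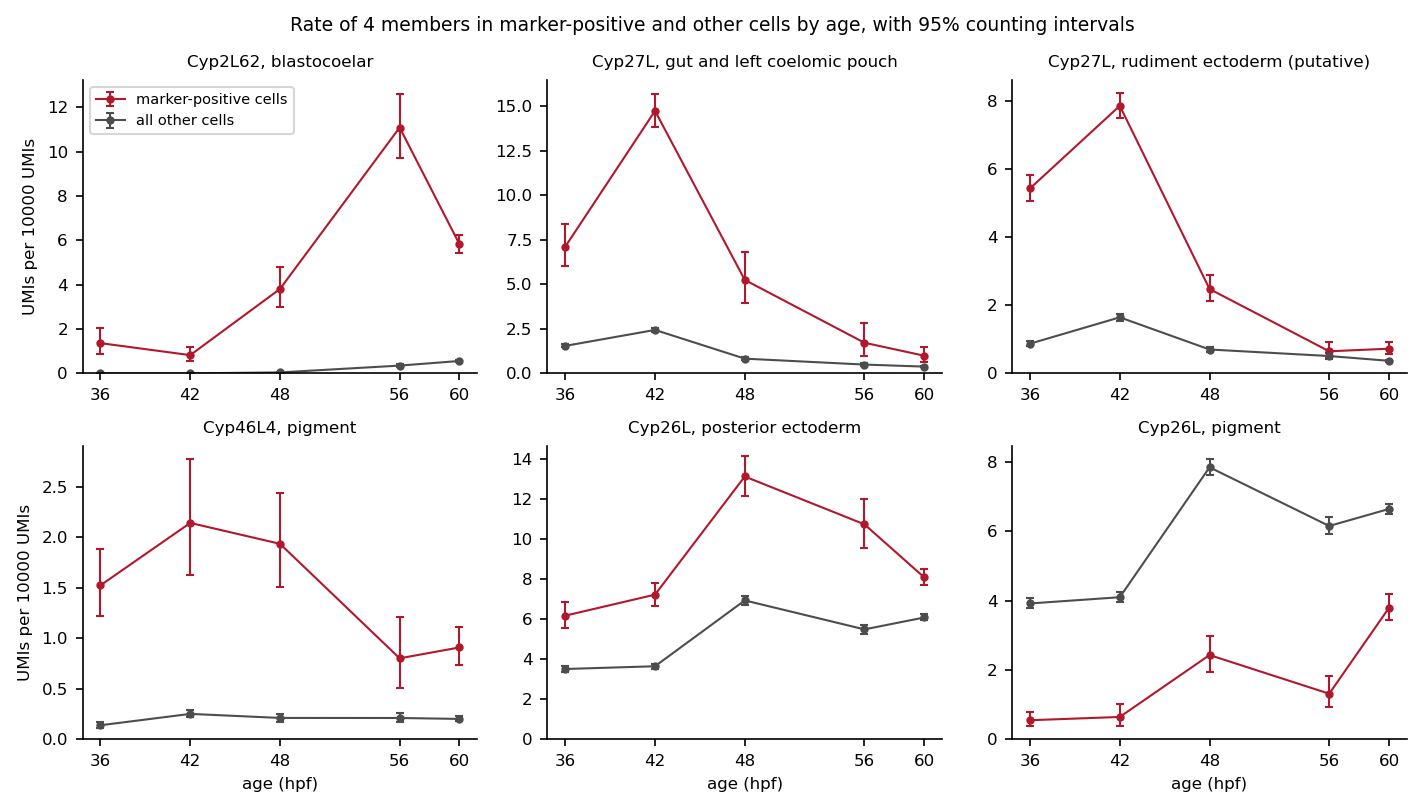
UMIs per 10000 UMIs of 4 members by age (hpf), in marker-positive cells of the named class (red) and in all other cells (grey), with 95% counting intervals. *Cyp27L* drops after 42 hpf in both of its classes, *Cyp2L62* is highest in blastocoelar-positive cells at 56 hpf, and *Cyp26L* in pigment-positive cells lies below the other cells at every age.

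*Cyp27L_1* is present as a pair of gene models. The first, HER_45845.t1, had normalized counts of 427.8, 437.9, 423.3, 305.6 and 472.5 from 36 to 60 hpf, and the second, HER_45842.t1, had 30.8, 31.1, 48.2, 32.4 and 37.6. Neither differed between 36 and 60 hpf beyond counting error, with ratios of 1.10 (0.983 to 1.24) and 1.22 (0.790 to 1.92). Neither shared the 42 hpf peak of *Cyp27L*, and their ratios in putative rudiment-positive cells were below 1, at 0.228 and 0.257. Both were called in skeletal marker-positive cells, but from 24 and 4 UMIs, and without the 42 hpf library the first ratio was 1.94 in place of 2.35 and the second rested on 1 UMI.

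Family 46 is named for the enzyme that hydroxylates cholesterol in the mammalian brain. *Cyp46L5* (HER_23385.t1) had normalized counts of 323.6, 257.1, 299.6, 228.1 and 203.0, lower at 60 than at 36 hpf by 1.59-fold (1.37 to 1.86). *Cyp46L3* (HER_49945.t1) was 1.96-fold lower (1.12 to 3.48), from 32, 29, 17, 17 and 24 UMIs. The second *Cyp46L5* model, HER_43019.t1, went the other way, 1.45-fold higher (1.04 to 2.05), with normalized counts of 48.0, 72.5, 74.2, 52.1 and 69.7. Copies under the same name therefore did not share a direction. The 2 *Cyp46L2* models and the 2 *Cyp46L4* models had intervals that included no change. By cell class, *Cyp46L4* (HER_19282.t1) lay in pigment cells and is described with them. *Cyp46L2* (HER_22208.t1) was 2.43-fold higher in neural marker-positive cells (1.33 to 4.08), from 14 of its 68 UMIs, and without the 60 hpf library the interval of this ratio began at 0.911.

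*Cyp51*, the lanosterol demethylase of sterol synthesis, was low at all ages. It had 46, 34, 40, 53 and 75 UMIs, or normalized counts of 41.7, 32.0, 52.1, 74.6 and 46.3, highest at 56 hpf. Its ratio in neural marker-positive cells was 2.68 (2.02 to 3.49), from 55 of 248 UMIs, and the rate there was above that of the other cells in 5 of 5 libraries. The size of the ratio differed with age. From 36 to 60 hpf the rate in neural-positive cells changed 0.138-fold (0.0613 to 0.315), from 13 and 15 UMIs. In all other cells it changed 1.37-fold (0.881 to 2.16). Without the 60 hpf library the ratio was 4.01 (2.86 to 5.46). When 3 UMIs of the neural markers, whichever they were, defined a positive cell, 24395 of the 26740 cells were positive. The ratio was then 1.41 (1.23 to 1.60), but it compares nearly all cells with a small rest and does not describe neural cells.

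The steroid family was among the groups that were higher late. Family 17 enzymes act on pregnane steroids in the vertebrate gonad and adrenal gland. *Cyp17L1* is the name of 7 features here, of which 2 had 50 UMIs or more. HER_24952.t1 had normalized counts of 304.6, 305.1, 492.4, 454.8 and 614.4, a 2.02-fold difference between 60 and 36 hpf (1.78 to 2.29). HER_24966.t1 had 84.3, 116.8, 161.5, 167.6 and 194.3, higher at each successive age and 2.31-fold in all (1.82 to 2.94). Both copies were thus at least 2-fold higher late. Their highest class ratios were 1.42 and 1.59, both at the animal pole, so neither was concentrated in any class profiled. *Cyp17r2* (HER_30293.t1) had 51, 72, 27, 5 and 56 UMIs, and its count at 56 hpf was far below that of its neighbours in age. Its 60 to 36 hpf ratio was 0.747 (0.502 to 1.11). It was called in skeletal marker-positive cells from 6 of its 211 UMIs.

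Family 1 in vertebrates is switched on by the aryl hydrocarbon receptor and oxidizes flat aromatic compounds. *Cyp1r4* had 1959, 1865, 1869, 1192 and 4543 UMIs, which are normalized counts of 1776, 1756, 2435, 1678 and 2802. Like *Cyp26L*, it was lower at 56 hpf than at 48 and 60 hpf, also with CPM (2374, 2061 and 2714 at these ages in order, and 5438, 4232 and 4635 for *Cyp26L*). It was 1.58-fold higher at 60 than at 36 hpf (1.5 to 1.66). *Cyp1r4* also leaned to the ectoderm, with a ratio of 1.54 in posterior ectoderm (1.47 to 1.61) and 1.37 in left ectoderm. Unlike *Cyp26L* it was below 1 at the animal pole, at 0.542 (0.513 to 0.572), and nearer to 1 in putative rudiment ectoderm, at 0.860. In pigment-positive cells it stood at 0.432.

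*Cyp1L1* (HER_14861.t1) and *Cyp1L5* (HER_14859.t1), whose gene model numbers are almost consecutive, were both higher late. *Cyp1L1* had 40, 51, 86, 100 and 337 UMIs, or normalized counts of 36.3, 48.0, 112.0, 140.8 and 207.9, higher at each successive age and 5.73-fold in all (4.12 to 8.17). *Cyp1L5* had 27, 12, 32, 54 and 154 UMIs, lowest at 42 hpf, and was 3.88-fold higher at 60 than at 36 hpf (2.57 to 6.08). Neither reached a 2-fold ratio in a cell class, and the highest were 1.73 in posterior ectoderm for *Cyp1L1* and 1.85 in ciliated cells for *Cyp1L5*. *Cyp1r3* (HER_23712.t1) went the other way in age, with normalized counts of 144.1, 112.1, 82.1, 114.1 and 101.2 and a ratio of 0.702 (0.561 to 0.879). In posterior ectoderm marker-positive cells *Cyp1r3* was 2.72-fold higher (2.29 to 3.21), and higher in 5 of 5 libraries. *Cyp1r2* (HER_25239.t1) had only 51 UMIs. It was called in cells with the late opsin program at 4.06-fold (1.11 to 10.4) from 4 of them. That ratio was 1.84 with 3 marker UMIs as the definition of a positive cell, and without the 48 hpf library its interval began at 0.799.

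Of family 2, the large and diverse group that includes most vertebrate drug-metabolizing P450s, *Cyp2L62* and *Cyp2L63* had the largest increases of the 57 members. *Cyp2L62* (HER_2676.t1) had 30, 36, 101, 377 and 1390 UMIs from 36 to 60 hpf. In normalized counts these were 27.2, 33.9, 131.6, 530.9 and 857.5, higher at each successive age and 31.5-fold in all (22.0 to 46.9). *Cyp2L63* (HER_19599.t1) had 9, 21, 49, 52 and 220 UMIs and was 16.6-fold higher (8.61 to 36.9). A higher count at every one of the 4 steps was seen in 5 members (8.77%, against 3.83% of all features), namely these, *Cyp1L1*, *Cyp17L1* (HER_24966.t1) and *Cyp3L10* (HER_43641.t1), and a lower count at every step in none (0.00%, against 4.69%). With CPM the members rising at every step were also 5, against 3.21% of all features, with *Cyp2L39* (HER_24046.t1) in place of *Cyp17L1*. The class preferences of *Cyp2L62* and *Cyp2L63* were unlike. The highest class ratio of *Cyp2L63* was 1.59, in posterior ectoderm.

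**Figure D3:**
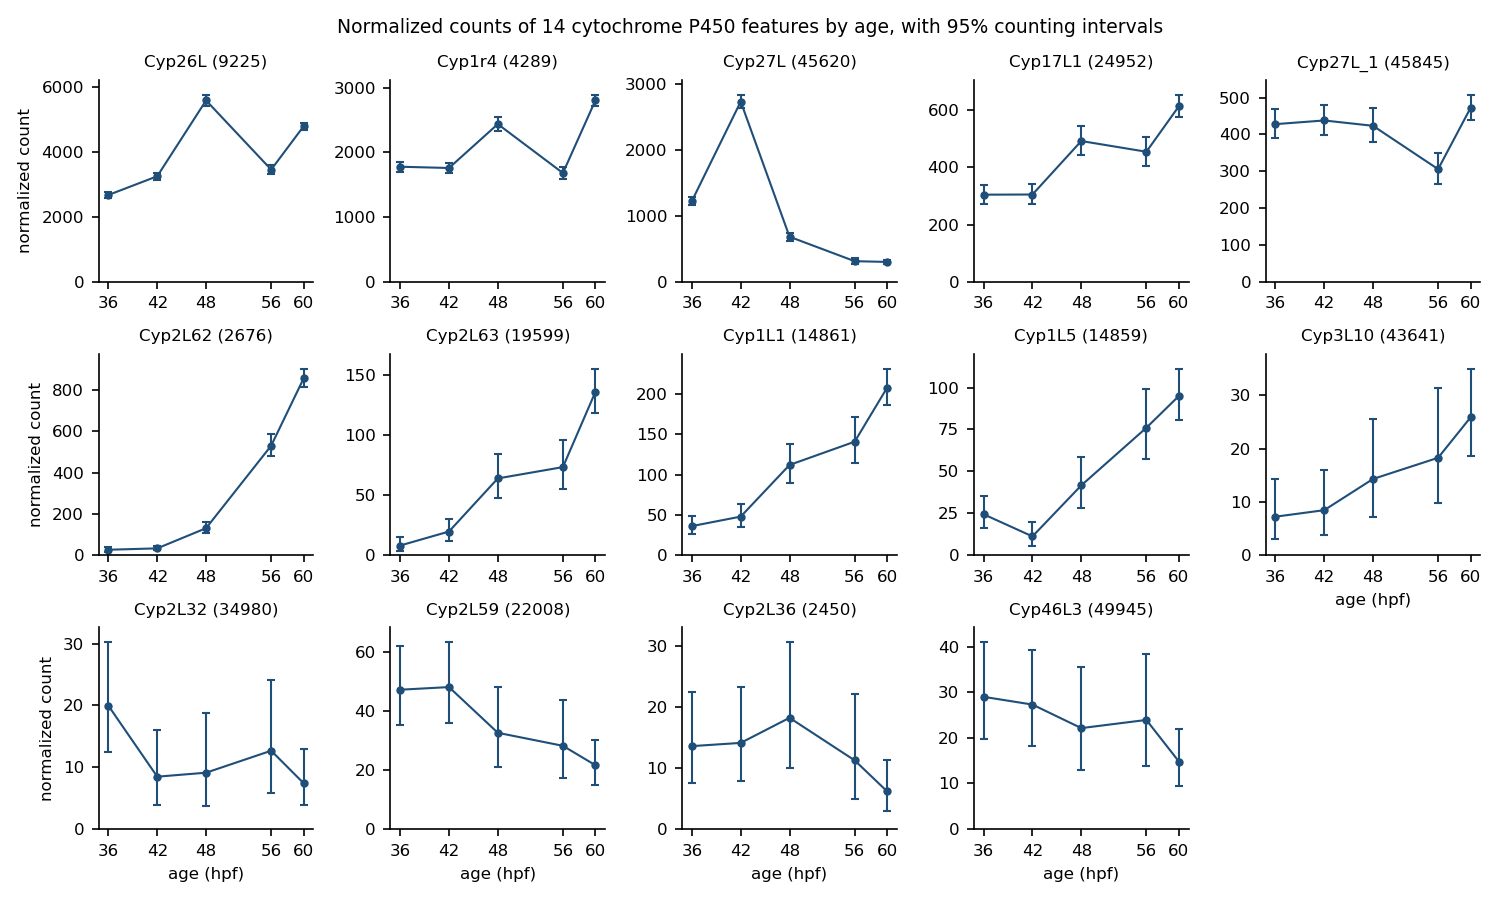
Normalized counts by age (hpf) of 14 members with 95% counting intervals, each panel on its own scale from 0 and titled by gene and gene model number. The panels are the 6 members with the most UMIs, then those with the largest rise and fall from 36 to 60 hpf. *Cyp2L62* goes from 27.2 to 857.5, and *Cyp27L* has its peak of 2738 at 42 hpf.

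*Cyp2L62* lay in blastocoelar marker-positive cells. Blastocoelar cells are wandering mesodermal cells with immune functions in the larva, here marked by *Astacin4*, *Irf4*, *Scl* and an immune gene. These cells were 4.08% of all, yet held 1142 of the 1934 *Cyp2L62* UMIs, a ratio of 13.5 (12.7 to 14.3). With cells thinned to 500 UMIs and the class called anew on them, 470 cells were positive, against 1090 without thinning. Positive cells missed in this way count among the others. Of the thinned cells, 27.9% of positive and 1.29% of other ones had a *Cyp2L62* UMI. Without thinning the shares were 32.4% and 2.39%, at median depths of 1641 and 1130 UMIs per cell. Among the 85 cells with 5 or more *Cyp2L62* UMIs, 89.4% were blastocoelar-positive, against 22.6% of the 660 cells with 1 UMI. The cells with much of this RNA were thus nearly all of this class.

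The ratio differed greatly among libraries. Without the 60 hpf library it was 40.7, and with thinned cells it was 31.1. In blastocoelar-positive cells the rate was 1.37, 0.829, 3.81, 11.1 and 5.83 UMIs per 10000 from 36 to 60 hpf. In all other cells it was 0.0102, 0.00605, 0.0490, 0.357 and 0.565. The rate within the class was therefore highest at 56 hpf, while outside it was highest at 60 hpf. Positive cells numbered 94, 145, 100, 143 and 608, which is 1.77%, 3.40%, 2.45%, 3.48% and 6.78% of the libraries. From 36 to 60 hpf the rate in positive cells was 4.26-fold higher (2.79 to 6.83) and positive cells were also a larger share of the library. The part of each in the 31.5-fold difference of the summed counts was not tested.

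Outside the class the *Cyp2L62* RNA was thin. At 60 hpf, cells positive for 10 other classes and not blastocoelar-positive had 0.355 to 0.713 UMIs per 10000, highest in pigment (0.550 to 0.909) and lowest in putative rudiment ectoderm (0.240 to 0.507), intervals that do not overlap. The collagen gene *A2col*, also concentrated in blastocoelar-positive cells (11.6 UMIs per 10000 there at 60 hpf), had 0.383 in all other cells. At 60 hpf *A2col* was thus higher than *Cyp2L62* within the class and lower than it outside. Outside the class it was also lower at 56 hpf, at 0.251, but at 36, 42 and 48 hpf it was higher, at 0.394, 1.24 and 0.229. *Cyp2L62* was detected in 5.68% of the non-blastocoelar cells at 60 hpf and in 7.56% of pigment-positive ones. Whether these UMIs stand for expression in such unlike classes was not tested. Nor was it tested how much of this RNA came from free RNA, from doublets or from cells with too few marker UMIs.

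**Figure D4:**
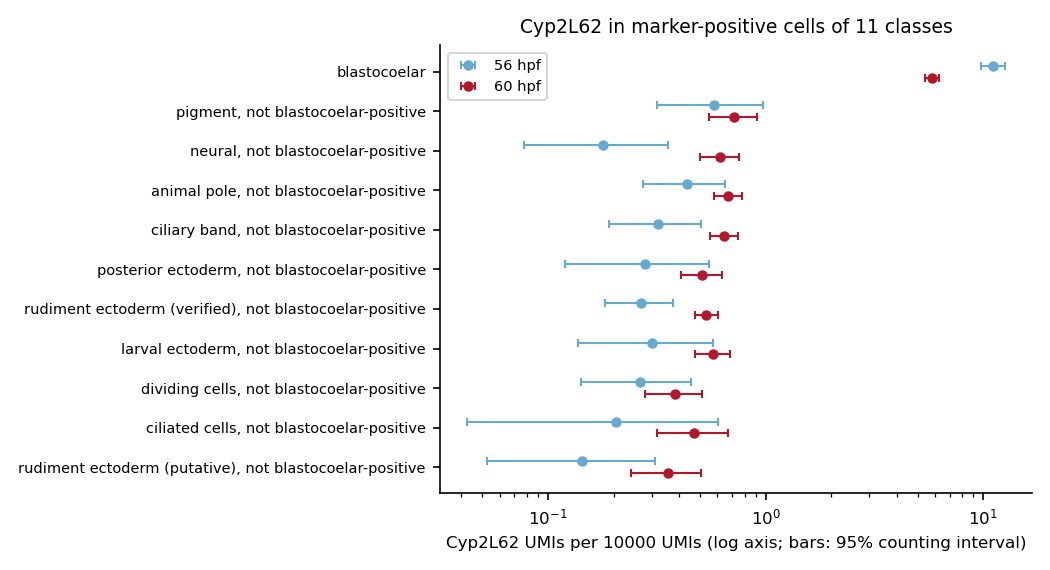
*Cyp2L62* UMIs per 10000 UMIs at 56 and 60 hpf in blastocoelar marker-positive cells and in cells positive for 10 other classes but not for blastocoelar markers, on a log axis with 95% counting intervals. Blastocoelar-positive cells stand at 11.1 and 5.83, and the other classes at 60 hpf lie between 0.355 and 0.713.

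The features most enriched in cells holding *Cyp2L62* are given as a description, and no gene list was tested on them. In the 967 cells with a UMI, *A2col*, named for a collagen chain, was 28.2-fold higher than expected from the other cells of the same library. Of other collagen-named genes, *6Afcol* was 12.5-fold and *FcolI/II/IIIf* 10.8-fold higher. *Astacin4*, which is named for a family of secreted proteases and is itself a blastocoelar marker, was 9.13-fold higher. The unnamed model HER_7690.t1 was 12.2-fold higher. *A2col* was detected in 25.7% of these cells and *Astacin4* in 59.3%.

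*Cyp2L26* (HER_23906.t1) shared the blastocoelar class without the late rise. It had 13, 18, 10, 18 and 23 UMIs and a 60 to 36 hpf ratio of 1.20 (0.585 to 2.59). Of its 82 UMIs, 32 lay in blastocoelar-positive cells, a ratio of 11.8 (8.06 to 16.6), higher in 5 of 5 libraries and 33.04 with thinned cells, from 10 UMIs. It also had ratios of at least 2 in left ectoderm and in putative rudiment ectoderm. In cells holding it, *Itih* was 27.2-fold, the immune gene of the blastocoelar marker list 20.03-fold, *Msp130r4* 16.96-fold, *Hypp_206* 16.9-fold and *A2col* 13.3-fold enriched. *A2col* was thus among the leading genes for both members. The share of members called in blastocoelar-positive cells, at least 2-fold with the interval above 1, was 5 of 57 (8.77%, against 5.47% of all features). Of these, *Cyp2L42* had a ratio of 2.30, which was 1.01 without the 60 hpf library.

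The sharpest class preferences belonged to 2 of the 5 features named *Cyp2L36*, which lay in pigment cells. Larval pigment cells make the red naphthoquinone echinochrome with a polyketide synthase, whose gene *Pks1* serves as a marker here together with *Mif4* and *Hox11/13c*. The marker *Fmo* of the same list had no UMI. HER_2450.t1 had 15, 15, 14, 8 and 10 UMIs from 36 to 60 hpf. Of these 62 UMIs, 50 were in pigment-positive cells, a ratio of 61.2 (45.4 to 80.6), and 12 in all other cells. HER_2461.t1 had 22, 11, 14, 16 and 20 UMIs. Of its 83 UMIs, 60 were in pigment-positive cells, a ratio of 35.3 (26.96 to 45.5), and 23 elsewhere. Pigment-positive cells were 6.04% of all cells. With thinned cells the ratios were 34.4 and 16.3, from 14 UMIs each. With 3 marker UMIs as the definition of a positive cell they were 765 (585 to 983) and 41.8 (32.4 to 53.1), so the size of the first depended on how pigment cells were defined. In that run 61 of the 62 UMIs of HER_2450.t1 lay in positive cells. Hardly any were left to set the expected number of 0.0797, and the interval leaves out the error of that number. HER_2450.t1 was also called in dividing cells, at 2.02-fold (1.29 to 3.005).

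Both pigment copies were seen at every age, and at a lower rate in the last library. HER_2450.t1 had 0.218, 0.451, 0.327, 0.255 and 0.0649 UMIs per 10000 in pigment-positive cells from 36 to 60 hpf, from 12, 12, 12, 7 and 7 UMIs. HER_2461.t1 had 0.345, 0.301, 0.327, 0.291 and 0.121. From 36 to 60 hpf these rates changed 0.298-fold (0.0994 to 0.821) and 0.350-fold (0.159 to 0.746). Over whole libraries the normalized counts at 60 hpf were 2.20-fold lower (0.926 to 5.49) and 1.62-fold lower (0.842 to 3.12), both intervals including no change. The RNA was sparse even in its own class, where 2.91% and 3.59% of pigment-positive cells had a UMI, against 0.0478% and 0.0915% of the other cells.

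The third *Cyp2L36* feature with 50 UMIs or more, HER_27392.t1, was not a pigment gene. Its ratio was 0.426 in pigment-positive cells and 2.65 in putative rudiment ectoderm-positive cells (2.24 to 3.11), and it was named here because it shares the name. In cells holding HER_2461.t1, *Sult1c_2*, named for a cytosolic sulfotransferase, was 15.3-fold enriched and present in 54.3% of cells. *Hypp_464* was enriched 16.0-fold, *Trim2-3* 15.2-fold, the potassium channel gene *Kcnc2* 14.8-fold and the phosphodiesterase gene *Pde1C* 13.7-fold. In cells holding HER_2450.t1 the leading features were *Cnnm2_1* (28.8-fold), *Olah* (27.9-fold), *Gpr54L_3* (24.3-fold), the scavenger receptor gene *Srcr71* (23.7-fold) and HER_35675.t1 (20.7-fold). The features named for HER_2450.t1 rest on only 12 to 36 UMIs each. The leading 5 features of one copy did not recur among those of the other. How often lists this short overlap was not computed, so this shows no difference between the copies.

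*Cyp46L4* (HER_19282.t1) was the most abundant pigment-leaning P450. It had 186, 266, 183, 104 and 319 UMIs, normalized counts of 168.6, 250.5, 238.4, 146.4 and 196.8, and no change from 36 to 60 hpf beyond counting error, at 1.17-fold (0.971 to 1.41). Of 1058 UMIs, 332 lay in pigment-positive cells, a ratio of 6.75 (6.04 to 7.52) that was above 1 in 5 of 5 libraries. The rate in pigment-positive cells was 1.52, 2.14, 1.94, 0.801 and 0.909 UMIs per 10000 from 36 to 60 hpf. In all other cells it was between 0.137 and 0.250. The level within the class was thus lower in the last 2 libraries than before, and from 36 to 60 hpf it changed 0.596-fold (0.441 to 0.807). In all other cells the rate changed 1.46-fold (1.15 to 1.86) between these ages. Positive and other cells therefore lay closer together at 60 hpf, and the cause was not tested. After thinning, 7.28% of pigment-positive cells and 0.908% of others had a UMI. The other feature named *Cyp46L4*, HER_22192.t1, had a ratio of 1.40 in pigment-positive cells.

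*Cyp3L6* (HER_37788.t1) and *Cyp2L29* (HER_25121.t1), named after their values were seen, also leaned to pigment cells, with ratios of 5.18 (4.32 to 6.17) and 5.05 (3.88 to 6.46), each above 1 in 5 of 5 libraries. The second copy of *Cyp2L29*, HER_24338.t1, did not, at 0.655. In all, 6 of 57 members were called in pigment-positive cells (10.5%, against 6.73% of all features), the sixth being *Cyp2L35*. The same 6 features were among the 8 called in cells with the late opsin program (14.0%, against 4.30%), a set of 525 cells of which 243 were also pigment-positive. *Cyp46L4* had 1.30 UMIs per 10000 in cells with pigment markers only, 1.37 in cells with both sets, 0.539 with the opsin set only and 0.195 in cells with neither. For *Cyp3L6* the same 4 values were 0.517, 0.403, 0.375 and 0.0881. These rates were pooled over the 5 libraries, not standardized by library. Of the 525 opsin cells 367 were from 60 hpf, against 635 of the 1615 pigment-positive cells, so class and age are mixed in them. In the pooled rates the opsin set alone carried less *Cyp46L4* than pigment cells did. For *Cyp3L6* the interval of the opsin set alone (0.238 to 0.563) overlapped those of pigment cells.

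**Figure D5:**
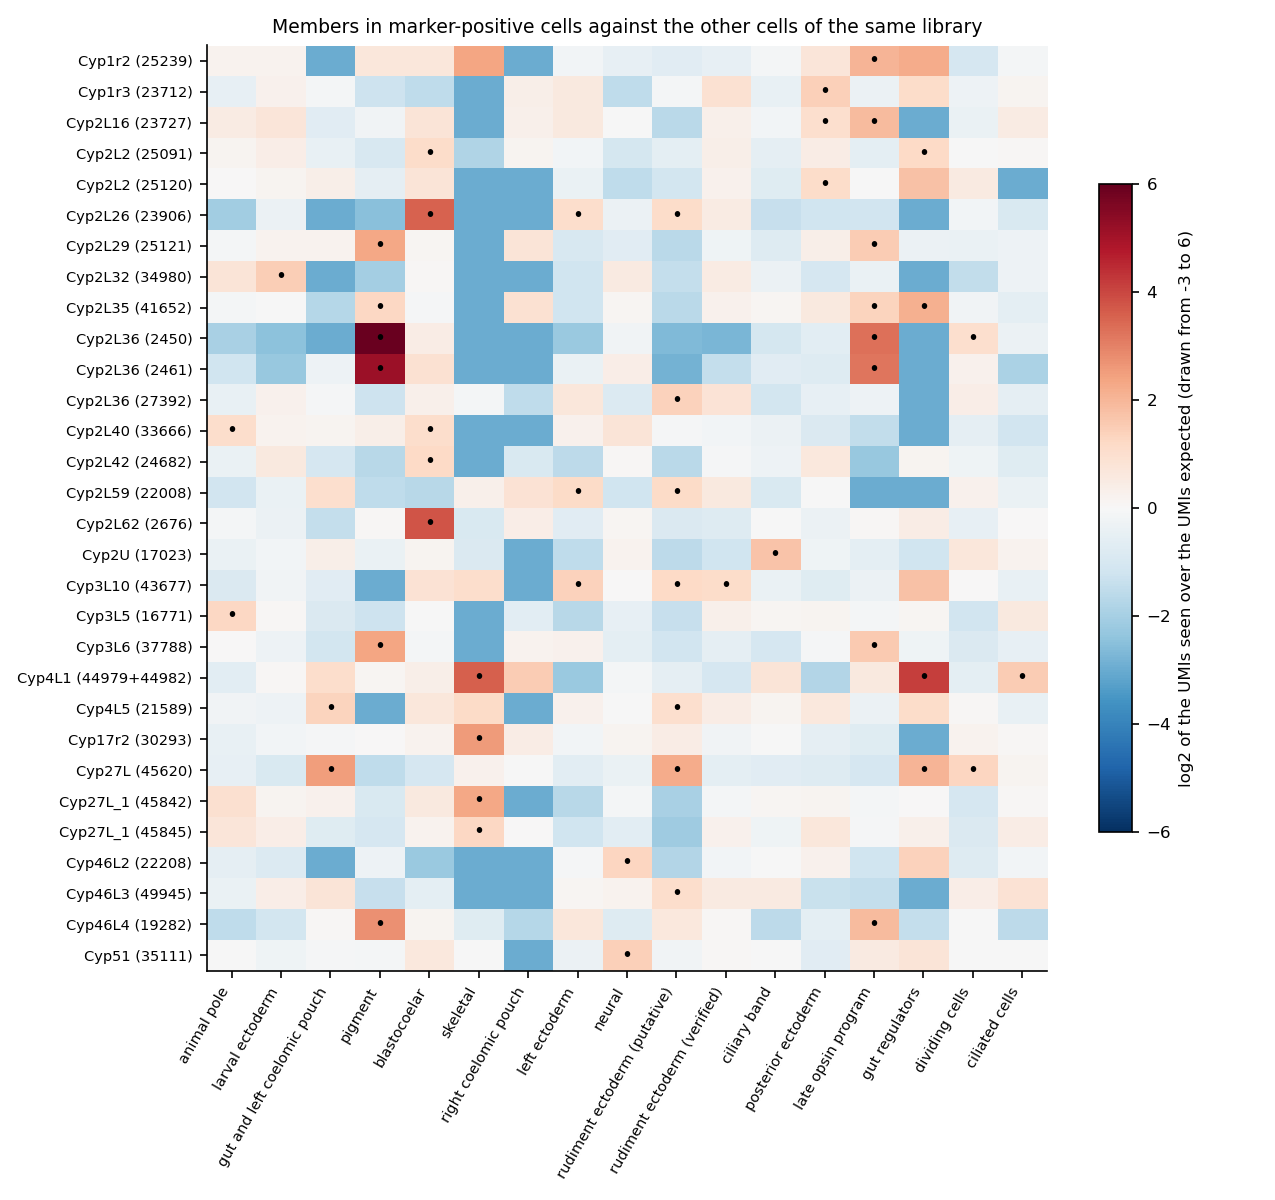
UMIs seen over UMIs expected, on a log2 colour scale, for the 30 members called in at least 1 of 17 marker classes; a dot marks a ratio of at least 2 with its interval above 1, and cells of the map with no UMI are drawn at -3. The strongest ratios are those of the 2 *Cyp2L36* copies in the pigment column (61.2 and 35.3), followed by *Cyp4L1* in gut regulators (17.8, from only 5 UMIs) and *Cyp2L62* in the blastocoelar column (13.5).

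Over the 17 classes, 30 of the 57 members were called in at least 1 (52.6%, against 38.0% of all features), and 27 in none. By class, putative rudiment ectoderm had 7 (12.3%, against 5.51% of all features), posterior ectoderm 3 (5.26% against 1.66%), skeletal cells 4 (7.02% against 4.28%), left ectoderm 3 (5.26% against 3.73%) and gut regulators 4 (7.02% against 3.79%). The animal pole (1.17%) and gut and pouch cells (3.79%) each had 2 members (3.51%). Larval ectoderm (0.463%), verified rudiment ectoderm (2.09%), the ciliary band (1.76%) and ciliated cells (1.19%) each had 1 (1.75%), the percentages after the class names being those of all features. Neural cells had 2 (3.51% against 7.43%), dividing cells 2 (3.51% against 3.24%) and right coelomic pouch cells none (0.00% against 3.27%). Several of these calls rest on few UMIs. Other settings were run only for the class in which a member had its highest ratio with the interval above 1. That is 1 call for each of the 30 members, and their further calls were not rerun. With cells thinned to 500 UMIs, 15 of these 30 calls were kept and 12 had too few UMIs for a value. When each library was left out in turn 23 to 29 were kept. The 8 members described above at 5-fold or more in pigment, blastocoelar or gut and pouch cells were called in each of these runs.

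Ectodermal preferences were milder. *Cyp2U* (HER_17023.t1), *Cyp3L5* (HER_16771.t1) and *Cyp2L39* (HER_24046.t1) were chosen for mention after their values were seen. *Cyp2U*, whose mammalian namesake oxidizes long-chain fatty acids, was 3.30-fold higher in ciliary band marker-positive cells (2.85 to 3.8) and higher there in 5 of 5 libraries. Without the 60 hpf library this ratio was 5.51. Only 2 of the 4 listed markers of this class had a feature. With 3 marker UMIs as the definition, 14568 of the 26740 cells were positive. The ratio was then 7.01 (6.30 to 7.79), but so broad a class does not describe ciliary band cells. *Cyp3L5* was 2.38-fold higher at the animal pole (1.97 to 2.85), and 3.79-fold without 60 hpf. *Cyp2L39* was 2.35-fold higher at 60 than at 36 hpf (1.94 to 2.86) and had its highest class ratio, 1.6, in verified rudiment ectoderm.

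Family 3, which in vertebrates handles the widest range of drugs and steroids, had 6 members with 50 UMIs or more, and 2 of them were at least 2-fold higher late. Both are named *Cyp3L10*. HER_43641.t1 had 8, 9, 11, 13 and 42 UMIs and was 3.57-fold higher at 60 than at 36 hpf (1.66 to 8.81). HER_43677.t1 had 13, 14, 11, 25 and 46 UMIs and was 2.41-fold higher (1.28 to 4.86). The wide intervals reflect counts near 10 at the early ages.

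The members of family 2 that were at least 2-fold lower late were scarce. *Cyp2L32* (HER_34980.t1) had 22, 9, 7, 9 and 12 UMIs and was 2.69-fold lower at 60 than at 36 hpf (1.28 to 5.97). *Cyp2L59* (HER_22008.t1) had 52, 51, 25, 20 and 35 UMIs and was 2.18-fold lower (1.40 to 3.45). *Cyp2L32* leaned to larval ectoderm, at 2.80-fold (1.71 to 4.32). *Cyp2L59* leaned to left ectoderm, at 2.25-fold (1.5 to 3.25), a class that made up 7.15% of cells at 36 hpf and 2.15% at 60 hpf. The part of that share in the lower count was not tested. Without the 42 hpf library the *Cyp2L59* ratio was 1.69, with an interval from 0.922.

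Family 4, the fatty acid hydroxylases, had none of 5 members past a 2-fold difference. *Cyp4L1*, a merged model (HER_44979.t1 and HER_44982.t1), had 16, 15, 8, 3 and 16 UMIs. Its ratio of 17.8 in cells positive for gut regulators (5.76 to 41.4) rests on 5 UMIs in 2 of 61 positive cells, from 2 of 5 libraries. No value could be had with thinned cells or without the 42 hpf library, and without 36 hpf it was 12.9, from 3 UMIs. Without 60 hpf it was 42.0, and with 3 UMIs as the definition of a positive cell 7.30. In cells holding it the leading features, *Bhmt_1* at 4.07-fold, HER_20088.t1 at 3.91-fold, *CcK/GLr* at 3.76-fold, *Lrrc68* at 3.54-fold and *Mctp1L* at 2.86-fold, were only weakly enriched.

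Many names are shared by copies, and differences between copies were not tested. Of the 83 names, 47 are carried by more than 1 feature and up to 7 share 1 name. In 10 names at least 2 copies had 50 UMIs or more. Among these, *Cyp17L1*, *Cyp2L5* and *Cyp46L5* had no copy called in any class and *Cyp27L_1* had the same class called for both copies. In the other 6, *Cyp2L2*, *Cyp2L29*, *Cyp2L36*, *Cyp3L10*, *Cyp46L2* and *Cyp46L4*, the copies did not have the same classes called. How often copies of a name differ in their calls among all features was not computed. The count of 6 therefore shows no divergence between P450 copies. For 2 of the 6 names the calls were not stable. The gut regulator call of *Cyp2L2* HER_25091.t1, from 9 UMIs, was lost without the 36, the 42 or the 48 hpf library and with 3 marker UMIs as the definition of a positive cell. The posterior ectoderm call of the other copy, HER_25120.t1, was lost without the 42 hpf library, with thinned cells and with that same definition. The *Cyp46L2* call was lost without the 60 hpf library, as given above, and with thinned cells.

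A P450 UMI was found in most cells once depth allowed it. Among cells with at least 500 UMIs, each thinned to 500, those with a UMI of any member were 45.7%, 45.7%, 53.2%, 53.7% and 55.8% from 36 to 60 hpf. This left out 509 of the 4106 cells at 56 hpf. As counted, the shares were 73.7%, 77.5%, 75.4%, 68.8% and 76.9%. Without *Cyp26L* and *Cyp1r4* the thinned shares were 31.1%, 29.1%, 31.0%, 35.3% and 34.9%. Single members were far sparser. Of the 57, 31 were found in under 1% of cells and 44 never exceeded 4 UMIs in a cell, and for every one of the 57 the cells holding it had a higher median depth than the cells without it.

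Lists of genes that work beside P450s had median log2 changes between -0.19 and 0.21. Their counts stand beside 10.2% of all features at least 2-fold higher and 12.0% at least 2-fold lower. All 7 electron donor features passed the filter, and 2 were at least 2-fold lower, both named *Cyb5* for cytochrome b5. The first *Cyb5* model, HER_46308.t1, had 380, 233, 267, 309 and 206 UMIs and was 2.71-fold lower at 60 than at 36 hpf (2.28 to 3.23), although its normalized count was highest at 56 hpf, at 435.1. The second, HER_46331.t1, was 2.29-fold lower (1.93 to 2.72). Its count too was highest at 56 hpf, and both were lowest in the last library. Among enzymes that conjugate oxidized products, 62 features passed, 8 at least 2-fold higher and 9 lower, with a median log2 change of 0.01. The most abundant were *Ugt2b1_2*, a glucuronosyltransferase, at 1.44-fold (1.32 to 1.57), and *Sult1a4*, a sulfotransferase, 1.5-fold lower (1.38 to 1.63).

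Flavin monooxygenases, the other large family of oxidizing enzymes, had 11 of 36 features past the filter, none at least 2-fold higher and 1 lower. *Fmo2_2* stood at 0.930-fold (0.860 to 1.01). Of the efflux pumps, 43 of 78 passed, with 3 higher and none lower. *Abcc5D* stood at 0.976-fold (0.954 to 0.999) and *Abcb1b* was 1.31-fold higher (1.22 to 1.41). Of the regulators, which are nuclear receptors and aryl hydrocarbon receptor partners, 18 of 34 passed, with 1 higher and 2 lower. *Nr1h6b* was 1.16-fold higher (1.11 to 1.20). Of the heme enzymes, 11 of 13 passed, with none higher and 1 lower. *FechL*, for the last step of heme synthesis, was 1.52-fold higher (1.27 to 1.83), and *Cpox_1* was 1.23-fold lower (1.03 to 1.46).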

How the data were processed

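Whole *He* larvae of 5 ages were measured as 1 droplet library each (10x Chromium 3′). The submitters' processing notes name Cell Ranger 3.1.0 and Seurat 4.0, and the counts the authors deposited are whole, unnormalized UMI counts per gene model. The genome build is not given in the sources used here. The library labelled 56 hpf has a slightly earlier age in the study's methods, and the label was kept.

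The members are 185 features. The study's limits on cells (more than 200 and fewer than 4000 genes, fewer than 10000 UMIs) were applied, and 41 of 26781 barcodes did not meet them. Doublets were not removed. Sums of UMIs per library were scaled with DESeq2 1.42.0 median-of-ratios factors (R 4.3.3; 1.10, 1.06, 0.768, 0.710 and 1.62 from 36 to 60 hpf), and changes are on the scale log2(normalized count + 1). Ratios with intervals carry no added 1. Intervals are exact (Poisson, conditional binomial, Clopper-Pearson) and were computed with scipy 1.17.1. A feature entered comparisons between ages if its mean normalized count reached 10, and a class profile at 50 UMIs or more. Class markers came from the study, except for the late opsin program, gut regulators, muscle, dividing cells and ciliated cells, which came from general knowledge or earlier results of these data. No feature matched 11 of the listed markers. Muscle and undifferentiated cells had under 50 positive cells. For thinning, 500 UMIs were drawn from each cell that had at least 500. Cells below that were left out, 11 at 36 hpf and 509 of 4106 at 56 hpf. Cell classes were then called anew on the thinned counts.

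Members named are the 6 with the most UMIs, the 5 with the largest rise and fall, the 5 with the largest class ratio, those of the small families, and the 2 most abundant of each partner list. One feature that this rule names is not reported here. The members, lists and rules were chosen with earlier results of these data known. The scripts were tested on simulated data. No P450 sequence was in the files used, so none is shown.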

Additional observations from a re-analysis of the deposited data

How the results depend on the processing

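No paired analysis was possible because each age has 1 library. The count of members at least 2-fold higher, 9, was 7 to 10 under the other scalings, cell filters, cell weights, pseudocount and low-count filters, save that it was 31 of 149 when every member with a UMI was counted. The count at least 2-fold lower, 4, was 2 with cells of over 500 genes, 1 with a pseudocount of 10 and 16 of 149 with every member counted. Members highest at 60 hpf, 22, became 47 with every member counted. Members highest at 36 hpf, 6, became 20 with every member counted and 11 with equal weight for each cell. These counts stand without the shares of all features under the same settings, so they show no excess or lack of members. The summed ratio of 1.42 was 1.37 with CPM. With 56 hpf as the last age, an alternative chosen after seeing the data, the summed ratio was 1.06 and the median log2 change -0.060, which turns its sign. With 56 hpf and CPM, also chosen after seeing the data, they were 1.30 and 0.23. The cause was not tested. With features of 1 name summed, also chosen after seeing the data, 7 of 52 names were higher and 3 lower. The share of cells with any P450 UMI was 73.7%, 77.5%, 75.4%, 68.8% and 76.9% without thinning. Class ratios were recomputed only in the class where a member had its highest ratio, so further calls of a member were not rechecked. Of 30 members called in a class, 23 were kept with 3 UMIs as the definition of a positive cell. With thinned cells 15 were kept (12 had too few UMIs), and with each library left out 23 to 29. The 3 UMI definition made 24395 of the 26740 cells positive for the neural class and 14568 for the ciliary band. Of 174 recomputed changes of named members, 167 stayed within the counting interval and no called change turned direction. Of 268 recomputed class ratios, 58 left the interval and none of a called member fell below 1, where fewer than 3 UMIs were taken as giving no value. A ratio with pseudocount 10 was not computed for the sum.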
